A study of Homo sapiens with 6 samples.

Results

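The genes described here are those of the creatine kinase system, of creatine synthesis and uptake, and myoglobin. They were taken by symbol: CKM, CKB, CKMT1A, CKMT1B, CKMT2, GATM, GAMT, SLC6A8 and MB, 9 of the 35793 genes listed, and all 9 were among the 15536 genes tested. RNA came from day 15 cardiomyocytes made from the established human induced pluripotent stem cell line WTC11. One genotype was unedited (WT, wild type) and the other was STK25KO, a homozygous CRISPR/Cas9 knockout, in the same line, of STK25, which encodes a serine/threonine kinase. Each genotype had 3 biological replicates and no treatment was given. The labels name 1 knockout line, so an effect of the edit and any other difference between the lines cannot be told apart. The values are the authors' normalized counts, that is, read counts divided by 1 factor per library, and the libraries held from 22443904 to 53224112 reads in genes.

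Creatine kinases move a phosphate group between ATP and creatine, and so buffer ATP where it is used. The cytosolic enzyme is built from the muscle subunit CKM and the brain subunit CKB, and the brain subunit is the early form in the developing heart. The mitochondrial enzymes, sarcomeric CKMT2 and ubiquitous CKMT1 (encoded by the near-identical pair CKMT1A and CKMT1B), load phosphate onto creatine beside the ADP/ATP carrier of the inner membrane. GATM makes guanidinoacetate, GAMT methylates it to creatine, and SLC6A8 imports creatine from outside the cell. MB is the oxygen-binding haem protein of heart and slow skeletal muscle.

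STK25 itself had 8119 ± 1168 normalized counts in the wild type and 3720 ± 251 in the knockout (SD, n = 3), with a limma adjusted p of 0.00903 that was 0.0611 without wild-type replicate 1. Wild-type replicate 2 and knockout replicate 1 stood apart from the other libraries on the second principal component, which held 24.1% of the variance. In these 2 libraries the shortest of 5 equal classes of transcript length (129 to 1408 bases, 3035 genes) lay above the genotype's mean, by a median of 0.40 and 0.41 on the log2 scale, whereas the other 4 libraries had medians from -0.32 to -0.08. MB and GAMT have short transcripts (1153 and 1121 bases) and fell in that class. Results for MB, GAMT and GATM are therefore given with and without them.

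CKM, CKB and CKMT2 rose together in the knockout, while the ubiquitous mitochondrial gene CKMT1B fell. GATM and SLC6A8 rose, and GAMT and MB had lower means without passing the test. In all, 5 of the 9 genes were higher and 1 was lower at a Benjamini-Hochberg adjusted p under 0.05 (limma), and 3 were not called. Over all tested genes 12.8% were called, 5.97% higher and 6.79% lower. The median log2 fold change of the 9 genes was 1.14, against 0.0052 over all tested genes. The values of the 2 genotypes did not overlap in 8 of the 9 genes, against 33.4% of all tested genes. The 9 genes were picked with results of these data known, so these counts describe them and test nothing about the group.

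**Figure D1:**
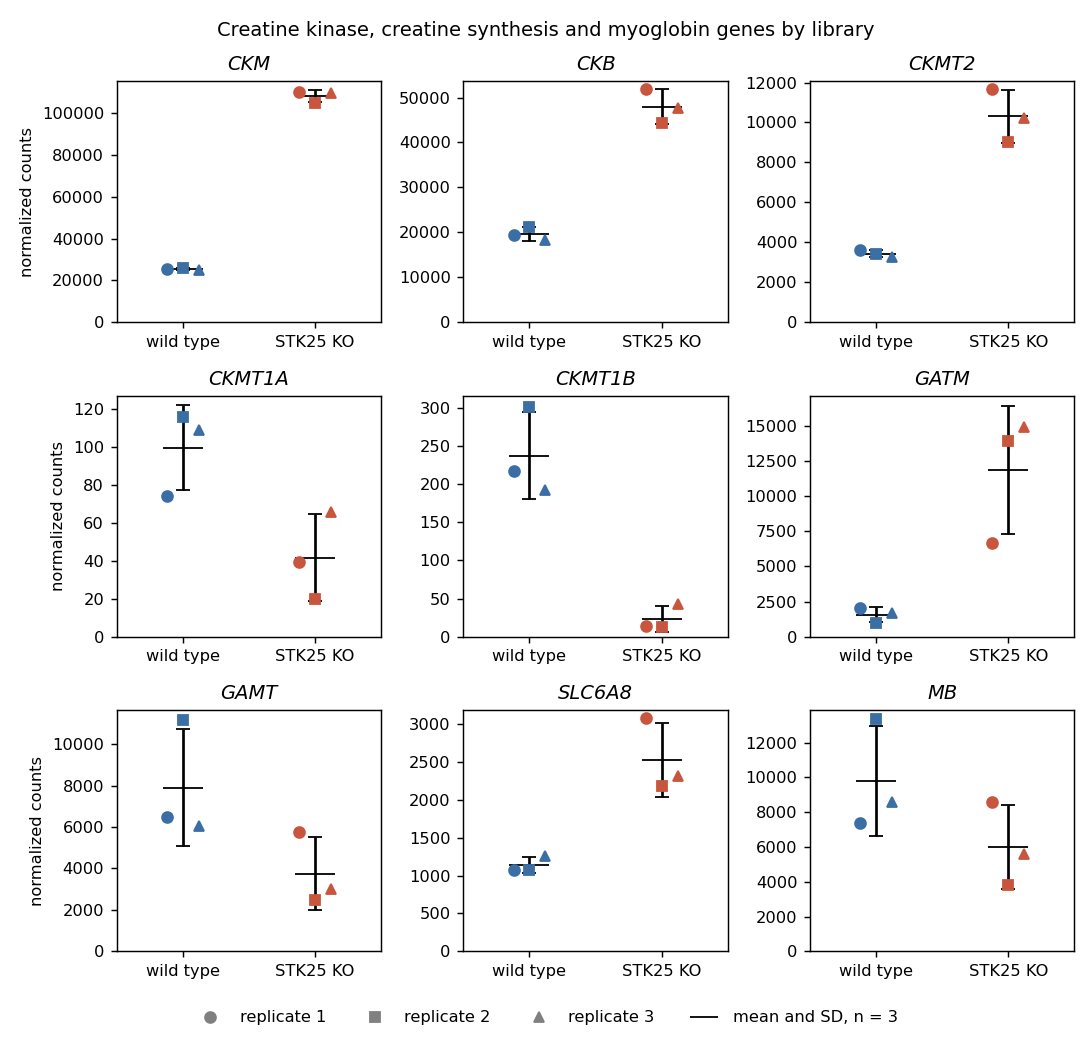
Normalized counts (vertical axes, from 0) of the 9 genes in each library, with wild type in blue and STK25 knockout in red. Symbols mark replicates, bars the mean and SD of 3 libraries. Only MB has wild-type and knockout libraries that overlap, and wild-type replicate 2 and knockout replicate 1 are the highest of their genotype for MB and GAMT and the lowest for GATM.

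CKM, the muscle subunit (chromosome 19, 45306414 to 45322977, minus strand, in GENCODE 29 on GRCh38), had 25510, 25994 and 25015 normalized counts in the wild-type libraries and 109972, 105103 and 109846 in the knockout libraries. The libraries of each genotype lay close together and the genotypes were far apart. The knockout mean was 4.25-fold that of the wild type (108307 ± 2775 against 25506 ± 490, SD, n = 3 each). On the log2(value + 1) scale this was a difference of 2.09 ± 0.20 (SE; limma adjusted p = 0.000887). With 3 libraries against 3, the two-sided exact permutation p was 0.1, which is as small as the design allows. Of all tested genes 96.7% had a lower fold change than CKM, and 99.7% had a lower mean of normalized counts, which are not divided by length.

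CKB, the brain subunit (chromosome 14, 103519659 to 103523111, minus strand), also rose. It had 19470, 21123 and 18201 normalized counts in the wild type and 51975, 44275 and 47717 in the knockout. Every knockout library was above every wild-type library, by a 2.45-fold difference in means and a log2 fold change of 1.29 (SE 0.19, limma adjusted p = 0.00549).

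CKMT2, the sarcomeric mitochondrial enzyme (chromosome 5, 81233285 to 81266397, plus strand), had 3611, 3394 and 3286 normalized counts in the wild type and 11656, 9024 and 10249 in the knockout. The knockout libraries were 3.01-fold higher on average, with a log2 fold change of 1.58 and an SE of 0.18 (limma adjusted p = 0.00176). CKM, CKB and CKMT2 shared no word of 31 bases with the transcripts of any other gene in GENCODE 29, so no stretch of that length links their reads to a paralog.

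The sequences around the start sites of the 3 creatine kinase genes that rose are shown to let their features be compared. Each window runs from 250 bases before to 50 bases after the RefSeq start site on GRCh38.p14, is written on the gene's strand, and was found for 8 of the 9 genes, all but GAMT. Capitals mark matches on either strand to an E-box (CANNTG), a MEF2 box, an M-CAT box with the letters CATTCC, or else a CArG box, the TATA box with the letters TATAAA or the estrogen-related receptor element TNAAGGTCA. The CKM window lies at chr19:45322826-45323125 (minus strand), the CKB window at chr14:103522781-103523080 (minus strand) and the CKMT2 window at chr5:81233072-81233371 (plus strand).
CKM: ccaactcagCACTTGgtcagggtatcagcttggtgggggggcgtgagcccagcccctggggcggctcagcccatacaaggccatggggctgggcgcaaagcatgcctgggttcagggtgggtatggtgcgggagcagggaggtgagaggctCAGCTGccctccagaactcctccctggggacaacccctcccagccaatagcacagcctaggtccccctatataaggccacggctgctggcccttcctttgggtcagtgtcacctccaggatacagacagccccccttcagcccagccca
CKB: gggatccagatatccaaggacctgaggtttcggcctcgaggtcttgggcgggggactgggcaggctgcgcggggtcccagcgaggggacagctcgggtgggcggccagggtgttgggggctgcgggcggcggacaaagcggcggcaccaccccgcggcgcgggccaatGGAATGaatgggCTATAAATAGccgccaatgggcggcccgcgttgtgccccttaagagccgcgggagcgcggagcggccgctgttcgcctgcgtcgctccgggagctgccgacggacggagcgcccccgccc
CKMT2: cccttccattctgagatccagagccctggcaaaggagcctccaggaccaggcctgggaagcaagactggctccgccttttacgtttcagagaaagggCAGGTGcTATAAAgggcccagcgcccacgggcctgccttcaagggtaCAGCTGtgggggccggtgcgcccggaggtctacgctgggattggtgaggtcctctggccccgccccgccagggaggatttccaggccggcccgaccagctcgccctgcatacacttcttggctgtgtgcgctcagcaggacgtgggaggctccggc
These windows had no motif of the list in common. CKM held 2 E-boxes, and the window of CKMT2 held 2 E-boxes and a TATA box. CKB held no E-box, but an M-CAT box and a MEF2 box that overlaps its TATA box. Of the 35116 windows of this length in the RefSeq table, 68.7% hold an E-box, 14.0% an M-CAT box, 11.5% a TATA box, 2.99% a MEF2 box, 1.29% a CArG box and 0.951% the estrogen-related receptor element. A match describes the letters only. The TATA box matches began at -146 in CKMT2 and at -69 in CKB, counted from the start site. Variants of the letters TATAAA were not searched for, so CKM is not shown to lack such a box.

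The ubiquitous mitochondrial genes had low values that were lower still in the knockout. CKMT1B (chromosome 15, 43593054 to 43604901, plus strand) had 218, 301 and 193 normalized counts in the wild type and 14.0, 12.3 and 42.7 in the knockout, where these values stood for 11, 11 and 48 reads. Its mean was 10.3-fold lower in the knockout, with a log2 fold change of -3.51 and an SE of 0.53 (limma adjusted p = 0.00588). CKMT1A (chromosome 15, 43692886 to 43699222, plus strand) had 74.0, 116 and 109 normalized counts in the wild type and 39.4, 20.1 and 65.8 in the knockout. Its libraries did not overlap either, but the log2 fold change of -1.36 (SE 0.51) did not pass (limma adjusted p = 0.130).

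The split between these 2 genes is uncertain. Of the 31-base words of CKMT1B transcripts 93.7% also occur in CKMT1A, and 86.4% of those of CKMT1A occur in CKMT1B, which leaves 6.30% and 13.6% to tell them apart. Their sum does not depend on the split. It was 337 ± 69.5 normalized counts in the wild type and 64.7 ± 39.3 in the knockout (SD, n = 3 each), a 5.20-fold fall, with a log2 fold change of -2.51 and an SE of 0.47 (limma adjusted p = 0.0130).

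The make-up of creatine kinase RNA was compared after dividing each gene's value by its transcript length. CKM made up 52.5 ± 1.18% of the creatine kinase level per kilobase in the wild type and 65.2 ± 1.56% in the knockout (SD, n = 3 each). The share of CKB was 39.1 ± 1.30% in the wild type and 28.0 ± 1.00% in the knockout. CKMT2 held 7.74 ± 0.394% and 6.78 ± 0.561% in turn. CKMT1B held 0.460 ± 0.0913% in the wild type and 0.0131 ± 0.00962% in the knockout. All 5 genes summed to 48871 ± 2062 normalized counts in the wild type and 166670 ± 7688 in the knockout, or 3.41-fold more. With the longest transcript of each gene in place of the median length, the share of CKM was 52.9% and 65.6%.

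**Figure D2:**
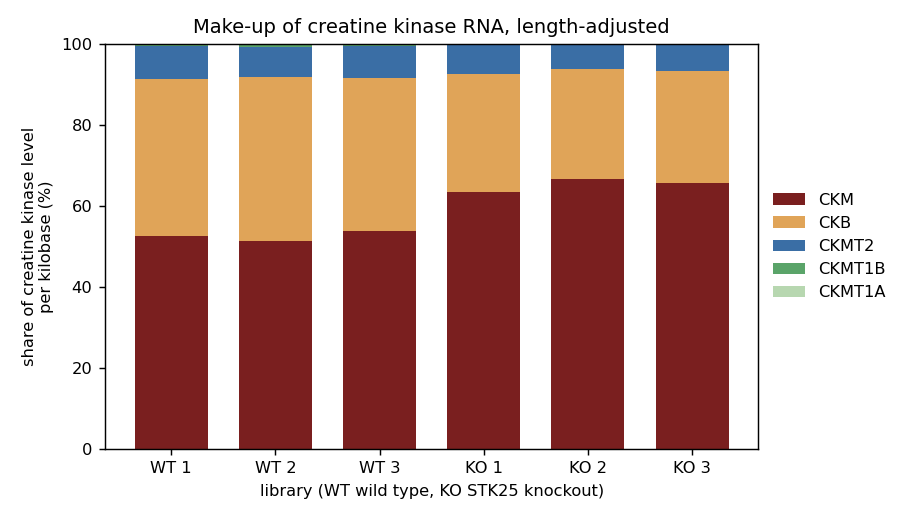
Share of each creatine kinase gene in the level per kilobase (vertical axis, percent) in each of the 6 libraries, with WT for wild type and KO for STK25 knockout. CKM takes 51.4 to 53.7% of the wild-type bars and 63.5 to 66.5% of the knockout bars, and the CKMT1A and CKMT1B segments are too thin to be seen in the knockout.

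Of the genes for creatine supply, GATM and SLC6A8 rose, and GAMT had a lower mean that did not pass the test. GATM, the first and rate-limiting enzyme of synthesis (chromosome 15, 45361124 to 45402327, minus strand), had 2045, 976 and 1706 normalized counts in the wild type and 6638, 13961 and 14955 in the knockout. Each knockout library was above each wild-type library, although replicate 1 of the knockout had less than the other 2. The knockout mean was 7.52-fold that of the wild type, and the log2 fold change was 2.89 (SE 0.39, limma adjusted p = 0.00341). Without wild-type replicate 2 the log2 value was 2.58, without knockout replicate 1 it was 3.26, and without both it was 2.95, with limma adjusted p-values of 0.0107, 0.00131 and 3.03e-07. Of all tested genes 98.2% had a lower fold change, the highest such share among the 9 genes. Its window is shown because it had the largest fold rise of the 9 genes, and lies at chr15:45378495-45378794 (minus strand) with 1 E-box.
GATM: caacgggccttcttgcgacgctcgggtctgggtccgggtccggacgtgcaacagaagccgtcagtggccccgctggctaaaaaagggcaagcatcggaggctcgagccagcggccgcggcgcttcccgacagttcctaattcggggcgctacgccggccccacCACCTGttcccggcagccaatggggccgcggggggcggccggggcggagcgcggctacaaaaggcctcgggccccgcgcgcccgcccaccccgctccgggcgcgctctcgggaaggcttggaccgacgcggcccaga
Like the windows of CKM and CKMT2 it holds an E-box, a motif that 68.7% of all windows have.

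GAMT, the second enzyme of synthesis (chromosome 19, 1397026 to 1401570, minus strand), had 6489, 11174 and 6050 normalized counts in the wild type and 5749, 2487 and 2987 in the knockout. The genotypes did not overlap, but only narrowly, since knockout replicate 1 lay just under wild-type replicate 3. The log2 fold change was -1.12 (SE 0.37) and did not pass (limma adjusted p = 0.0902). Without knockout replicate 1 it was -1.48 (limma adjusted p = 0.0184), and without wild-type replicate 2 it was -0.84 (limma adjusted p = 0.188). Without both libraries that stood apart it was -1.20 (SE 0.14, limma adjusted p = 0.000154). After removal, library by library, of the trend with length and GC content it was -1.11 (SE 0.16, limma adjusted p = 0.00357).

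SLC6A8, the creatine transporter of the plasma membrane (chromosome X, 153688099 to 153696593, plus strand), had 1069, 1077 and 1260 normalized counts in the wild type and 3080, 2179 and 2317 in the knockout. The knockout libraries were all higher, by 2.22-fold in the means and a log2 fold change of 1.14 (SE 0.21, limma adjusted p = 0.0121). Without wild-type replicate 1 the value was 1.10 with an adjusted p of 0.0698 (limma), over the threshold. Its transcripts share 17.8% of their 31-base words with the pseudogene SLC6A10P, for which at most 5 reads were listed in any library.

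MB, myoglobin (chromosome 22, 35606764 to 35637951, minus strand), had 7409, 13378 and 8611 normalized counts in the wild type and 8600, 3829 and 5579 in the knockout. Knockout replicate 1 lay within the wild-type range, so the genotypes overlapped. The means were 9799 ± 3157 and 6003 ± 2414 (SD, n = 3 each), and the log2 fold change of -0.74 (SE 0.34) did not pass (limma adjusted p = 0.214; exact two-sided permutation p = 0.2). No knockout library was above the highest wild-type library, unlike for CKM, CKB and CKMT2. Without both libraries that stood apart the log2 fold change was -0.79 (SE 0.18, limma adjusted p = 0.00685), a fit of 2 against 2 libraries. With the length and GC trend removed it was -0.81 (SE 0.19, limma adjusted p = 0.0249) and the genotypes no longer overlapped. Without wild-type replicate 2 alone it was -0.49, and without knockout replicate 2 alone -0.45, with limma adjusted p-values of 0.394 and 0.450. Dropping knockout replicate 1 gave -1.04 (limma adjusted p = 0.0620).

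**Figure D3:**
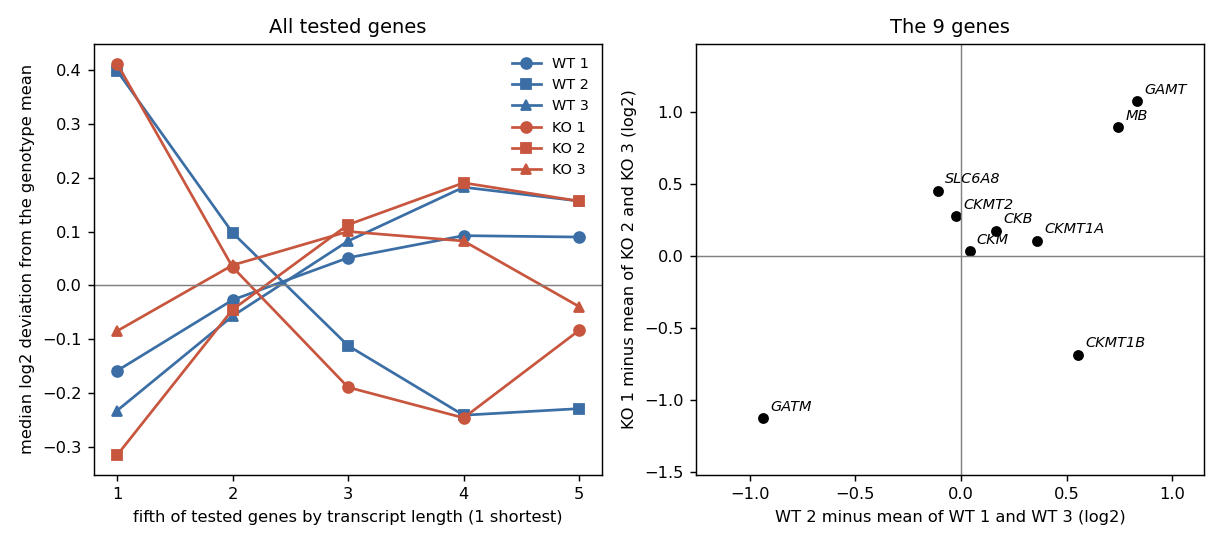
Left, the median log2 deviation of tested genes from their genotype's mean (vertical axis) by class of transcript length (horizontal axis, 5 equal classes, 1 shortest), 1 line per library; WT 2 and KO 1 start at 0.40 and 0.41 and the others below 0. Right, the log2 deviation of WT 2 (horizontal) and KO 1 (vertical) from the mean of the other 2 libraries of their genotype, 1 point per gene; MB and GAMT lie at the upper right, GATM at the lower left and CKM near 0.

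MB, GAMT and GATM each departed from their genotype in the same direction in both libraries that stood apart. So did CKB (0.17 in wild-type replicate 2 and 0.18 in knockout replicate 1, log2) and CKMT1A (0.36 and 0.11), by less. CKMT1B, SLC6A8 and CKMT2 departed in opposite directions. MB was higher in wild-type replicate 2 than in the mean of the other wild-type libraries by 0.74, and higher in knockout replicate 1 than in the other knockout libraries by 0.90 (both log2). GAMT was higher by 0.83 and 1.08. GATM, whose median transcript length of 2060 bases falls in the second class from the shortest, was lower there, at -0.93 and -1.12. CKM differed by 0.04 and 0.03 in these libraries, the smallest differences of the 9 genes taken over both. CKMT1B was at 0.55 in wild-type replicate 2 and at -0.68 in knockout replicate 1, SLC6A8 at -0.11 and 0.45, and CKMT2 at -0.02 and 0.28. What sets these libraries apart was not tested.

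**Figure D4:**
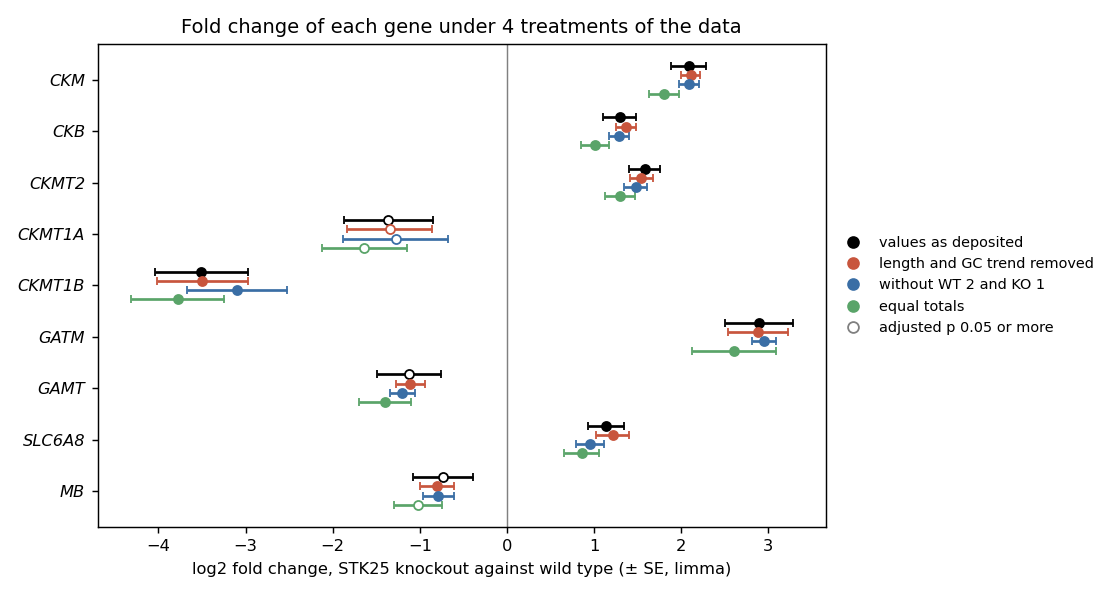
Log2 fold change of each gene, knockout against wild type (horizontal axis, ± SE), with the values as deposited, with each library's length and GC trend removed, without WT 2 and KO 1, and with equal library totals. Filled points have an adjusted p under 0.05; CKM, CKB, CKMT2, GATM and SLC6A8 are filled and above 0 in all 4, whereas CKMT1A is open in all 4.

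Every gene kept its direction in all 4 sets of fold changes plotted. Scaling the libraries to equal totals lowered the median over all tested genes from 0.0052 to -0.27, and the share of called genes that were higher from 46.8% to 27.4%. CKM was then at 1.80, CKB at 1.01, CKMT2 at 1.30, SLC6A8 at 0.86 and GATM at 2.61, each with a limma adjusted p under 0.05. GAMT passed in that scaling (-1.40, limma adjusted p = 0.0224) and MB missed the threshold narrowly (-1.02, limma adjusted p = 0.0504).

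Ratios between 2 genes of the same library were taken after adding 1 to each value. Apart from that 1, which matters only for low genes such as CKMT1A and CKMT1B, they do not depend on the scaling. They were tested for 8 pairs of genes. The CKM to CKB ratio of normalized counts was 1.31, 1.23 and 1.37 in the wild-type libraries and 2.12, 2.37 and 2.30 in the knockout libraries. The MB to CKM ratio was 0.290, 0.515 and 0.344 in the wild type and 0.0782, 0.0364 and 0.0508 in the knockout, lower by 2.82 on the log2 scale. Dropping wild-type replicate 2 gave a log2 change of -2.59, dropping knockout replicate 1 gave -3.11, and dropping both gave -2.88. The CKMT2 to CKM ratio was also lower, by 0.51 on the log2 scale, as the sarcomeric mitochondrial gene had a smaller fold change than the muscle cytosolic one. The SLC6A8 to CKM ratio changed by -0.95.

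The balance of the enzymes of creatine synthesis was read in the same way. The GATM to GAMT ratio of counts was 0.315, 0.0875 and 0.282 in the wild type and 1.15, 5.61 and 5.01 in the knockout, higher by 4.01 on the log2 scale. Without wild-type replicate 2 that change was 3.42, without knockout replicate 1 it was 4.74, and without both it was 4.15. The CKMT2 to CKMT1A plus CKMT1B ratio was higher by 4.09, and the CKMT1A to CKMT1B ratio by 2.15, with the doubt about that pair stated above. In all 8 ratios the genotypes did not overlap. Each had an exact two-sided permutation p of 0.1, also 0.1 after Benjamini-Hochberg adjustment over the 8, which is the smallest the design allows.

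**Figure D5:**
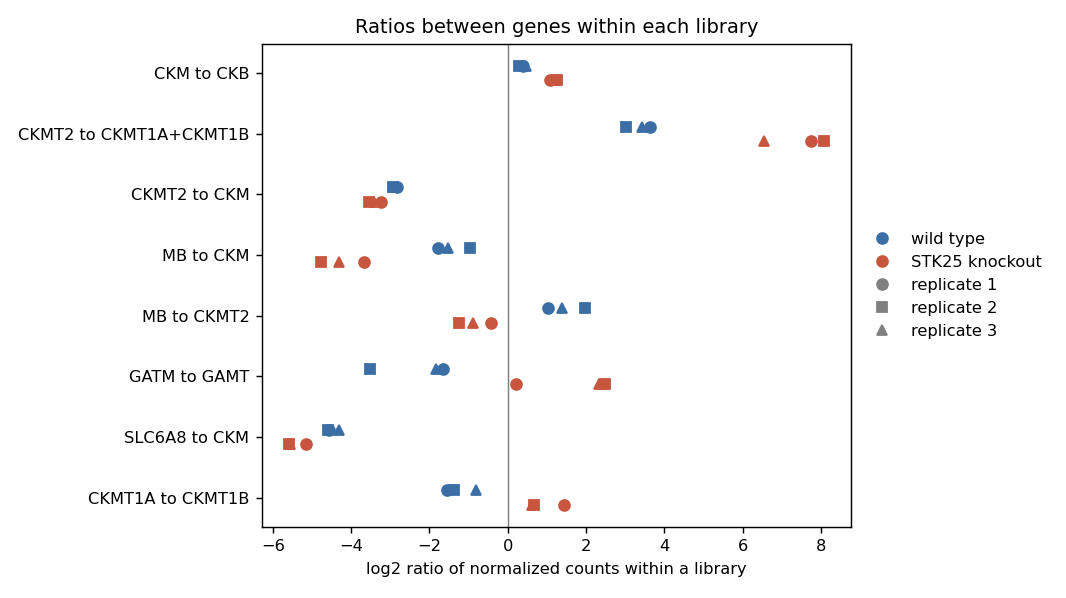
Log2 ratio of the normalized counts of 2 genes within each library (horizontal axis), for 8 pairs of genes, with wild type in blue, STK25 knockout in red and symbols for replicates. The colours are separate in every row, with MB to CKM lower and GATM to GAMT higher in the knockout.

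Levels per kilobase put the genes in an order within each genotype. In the wild type CKM was highest (15393 ± 296 normalized counts per kilobase, SD, n = 3), followed by CKB (11467 ± 857), MB (8499 ± 2738), GAMT (7051 ± 2533), CKMT2 (2269 ± 110), GATM (765 ± 265), SLC6A8 (402 ± 38.3), CKMT1B (136 ± 32.4) and CKMT1A (56.0 ± 12.6). The ranges of CKB and MB overlapped, as did those of MB and GAMT, and the other neighbours were separate in these 3 libraries. In the knockout the order was CKM (65363 ± 1675), CKB (28080 ± 2257), CKMT2 (6818 ± 871), GATM (5754 ± 2206), MB (5206 ± 2094), GAMT (3337 ± 1567), SLC6A8 (893 ± 172), CKMT1A (23.5 ± 12.9) and CKMT1B (13.1 ± 9.77). There the ranges from CKMT2 to GAMT overlapped between neighbours, as did those of CKMT1A and CKMT1B.

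Cell content was described with marker lists. Fewer cells of a type and less RNA per cell cannot be told apart in these bulk samples. Of the 14 cardiomyocyte markers 10 had a higher and 4 a lower mean log2 value in the knockout. With limma 1 of them was called, phospholamban (PLN), which was lower, and 8 had an unadjusted p under 0.05. Over all 15536 tested genes 12.8% were called with limma and 4275 had an unadjusted p under 0.05. On the recovered reads edgeR called 2 and DESeq2 called 8 of the 14, beside 1864 and 3210 of the 15536 tested genes in turn. The summed level of the 14 markers was 1618367 to 2038210 normalized counts among wild-type libraries and 2301829 to 4196960 among knockout libraries. Without MYL7, the highest of the 14, the sums were 1175378 to 1298261 in the wild type and 1441215 to 1872550 in the knockout. Taken against the mean log2 level of these markers, CKM was still higher in the knockout, by 1.63, as were GATM by 2.43, CKMT2 by 1.13, CKB by 0.84 and SLC6A8 by 0.69 on the log2 scale. GAMT was at -1.57 and MB at -1.19 on that scale, with no overlap between genotypes, CKMT1B at -3.96 and CKMT1A at -1.82. Each of the 9 had an exact two-sided permutation p of 0.1, the smallest possible, and 0.1 after adjustment over the 9.

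Markers of other cells moved as well, and their part in the results was not tested. Of 6 smooth muscle markers 3 were called higher (MYH11, CNN1 and SMTN), and the summed level was 20474 to 27530 in the wild type and 51044 to 62282 in the knockout. Neural markers, relevant to the brain subunit CKB, had 3 of 6 tested genes called higher (SOX2, PAX6 and TUBB3) and sums of 4593 to 7964 and 7123 to 16989. NES made up most of these sums and was not called (limma adjusted p = 0.340), and the highest value was that of knockout replicate 1, with the other 2 knockout libraries at 7123 and 7341. Without NES the sums were 90.6 to 218 in the wild type and 491 to 859 in the knockout. TUBB3 made up most of these knockout sums, at 439, 591 and 317. Of the 6 tested neural markers 4 had a higher and 2, GFAP and MAP2, a lower mean log2 value in the knockout. Epithelial markers had 2 called higher (KRT8 and KRT18) and 2 lower (KRT19 and CLDN6) of 8, with sums of 134201 to 141878 and 284386 to 315414. KRT8 and KRT18 made up most of these sums. The mean log2 level over all 8 was 10.31 to 10.76 in the wild type and 9.86 to 10.37 in the knockout, and so not higher there. Skeletal muscle markers, relevant to CKM and MB, had 3 of 5 tested genes called lower, sums of 281 to 317 and 66.1 to 112, and no read of MYOD1, MYF5, PAX7 or MYH1 in any library. Fibroblast and stromal markers had 3 called higher (COL3A1, DCN and THY1) and 1 lower (COL1A2) of 8 (sums of 12924 to 26543 and 7871 to 16397). COL1A1 and COL1A2 made up most of the wild-type sums. Of the 8 markers 5 had a higher and 3 a lower mean log2 value in the knockout, with a median log2 fold change of 0.76. Of 4 tested endothelial markers none was called with limma, edgeR or DESeq2, with 1 at an unadjusted p under 0.05 in limma (174 to 478 and 418 to 584). Liver and endoderm markers had 2 called lower of 6 tested (1850 to 3249 and 1324 to 1406) with FOXA2 at 0 throughout, and pluripotency markers had 1 called higher of 7 tested, TDGF1 (1274 to 1767 and 3129 to 4634). Without TDGF1 the pluripotency sums were 787 to 1204 in the wild type and 517 to 670 in the knockout. Among the remaining markers DNMT3B had the largest fall in normalized counts, from a mean of 441 in the wild type to 74.7 in the knockout. DNMT3B was not called (limma adjusted p = 0.0835). Of the 7 tested pluripotency markers 4 had a higher and 3 a lower mean log2 value in the knockout, so the markers did not fall as a group.

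Genes that work beside creatine kinase were read from lists of genes. Over all tested genes 12.8% were called, and these lists are short, so their counts describe them only. Among 6 tested ADP/ATP carriers and outer membrane porins, SLC25A4, the carrier isoform of heart and muscle, was called. It had 51009, 59497 and 48001 normalized counts in the wild type and 153030, 109479 and 128422 in the knockout, a log2 fold change of 1.29 (SE 0.24, limma adjusted p = 0.0138). The knockout libraries were all higher, but dropping replicate 1 or 3 of the wild type, or replicate 3 of the knockout, ended the call (limma adjusted p = 0.0870, 0.0817 and 0.0666). The list had a median log2 fold change of 0.39.

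Adenylate kinases, which interconvert ATP, ADP and AMP, had 2 of 7 tested genes called, both higher. AK7, a form found in motile cilia, had a log2 fold change of 1.60 (limma adjusted p = 0.00877), and AK9 one of 1.07 (limma adjusted p = 0.0191). AK9 lost its call when replicate 1 or 3 of the wild type or replicate 3 of the knockout was dropped (limma adjusted p = 0.0766, 0.0822 and 0.0829). The median over this list was 0.41.

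Haem synthesis, which supplies the group that myoglobin carries, had 1 gene called higher and 2 lower of 8 tested, and a median of 0.02. ALAS1, the first enzyme of the route in most tissues, rose by 1.02 on the log2 scale (SE 0.18, limma adjusted p = 0.0110), and lost its call without wild-type replicate 1 or knockout replicate 3 (limma adjusted p = 0.0641 and 0.0620). ALAS2, its erythroid form, had 104, 59.4 and 88.0 normalized counts in the wild type and 0, 1.11 and 5.33 in the knockout (limma adjusted p = 0.00667). FECH, which inserts iron into the ring, fell by 0.99 on the log2 scale (SE 0.24, limma adjusted p = 0.0333). Its adjusted p with limma was above 0.05 without wild-type replicate 1 (0.148) or 3 (0.129) and without knockout replicate 1 (0.0565), 2 (0.0680) or 3 (0.107). Of 10 other globins 3 could be tested and none was called with limma, edgeR or DESeq2, with 1 at an unadjusted p under 0.05 in limma (CYGB, cytoglobin, log2 fold change -1.31, limma adjusted p = 0.170). HBB, the highest of them, had 299, 150 and 23.6 normalized counts in the wild type and 30.5, 47.9 and 43.5 in the knockout.

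Methyl supply for GAMT had 1 of 7 genes called. AHCYL1, a relative of the enzyme that clears S-adenosylhomocysteine, rose by 1.21 on the log2 scale (SE 0.20, limma adjusted p = 0.00917), and the list had a median of -0.08. AHCY of the same list was not called (log2 fold change 0.0046, limma adjusted p = 0.992). Of 13 regulators of muscle energy genes 1 was called, beside 12.8% of all tested genes. MEF2C, a transcription factor of the muscle and heart programme, rose by 1.14 (SE 0.22, limma adjusted p = 0.0138). Its limma adjusted p was over the threshold without wild-type replicate 3 (0.0517), knockout replicate 2 (0.0502) or knockout replicate 3 (0.0601). This list had a median of 0.18. With equal library totals AHCYL1 (limma adjusted p = 0.0587), AK9 (0.0606), ALAS1 (0.0860) and MEF2C (0.0939) all lost their calls, and AK7, SLC25A4, ALAS2 and FECH had theirs.

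Genes with the pattern most like that of 4 of the genes were found by the root mean square difference of log2 values, each centred on its own mean, over the 6 libraries. The search covered 13035 genes with a mean of at least 50, and the libraries share their scaling, so this is a description. Nearest to CKM were LMCD1 (difference 0.057, log2 fold change 2.03), TMEM38A, a potassium channel of the sarcoplasmic reticulum (0.058, log2 fold change 2.01), and FGFR2, a growth factor receptor (0.11, log2 fold change 2.07), against a median difference of 1.10 over all genes compared. Nearest to CKB were CTSV (0.074), DUSP14 (0.074) and SLC25A4 (0.080). Nearest to CKMT2 were CHST11 (0.092), C8orf88 (0.096) and SPATS2L (0.098). Nearest to MB were WBP1 (0.081), STMP1 (0.082) and MRPS33 (0.089), none of which was called with limma (adjusted p from 0.207 to 0.241).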

How the data were processed

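Each gene symbol had 1 deposited value in each library, and libraries were matched to 3 wild-type and 3 STK25KO samples by the column names in the labels. Per the submitters' processing notes, kallisto 0.44.0, DESeq2 1.28.1 and GRCh38 were used, with roles, annotation and strand use not given in the sources used here. The unit is a scaled signal, named normalized counts in the deposited file: 100% were whole multiples of 1 step per library (tolerance 1e-06 of a value), and dividing by that step gave the reads, which may be rounded estimates.

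Under R 4.3.3, limma 3.58.1 (lmFit, eBayes with a trend) was fitted to log2(value + 1), pseudocount 1, of genes whose mean reached 10. Benjamini-Hochberg adjustment ran over all genes tested, with a threshold of 0.05. That scale understates the fold change of low genes. As alternatives the recovered reads went through edgeR 4.0.16 and DESeq2 1.42.0. All 3 fits were also run on simulated counts. These held no length trend and no libraries that stand apart, so that run does not cover those features of the data. Exact permutation tests used scipy 1.17.1. Transcript lengths (median over the basic set, of coding transcripts for levels per kilobase and of all transcripts for the length trend), positions and shared words came from GENCODE 29, start-site windows from RefSeq. A length was found for 97.7% of tested genes.

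Named genes were STK25, the 9 genes, those of the lists that passed the threshold (or the list's highest gene) and the 3 genes nearest in pattern. AHCY, CYGB, NES, PLN, TDGF1, SLC6A10P and the other markers were named after their values were seen. One list of the genes beside creatine kinase is not reported here. Genes and lists were chosen with earlier results of these data known. The alternatives that left out 2 libraries together, removed the length and GC trend or used the longest transcript were chosen after seeing the data.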

Additional observations from a re-analysis of the deposited data

How the results depend on the processing

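With limma 1982 of the 15536 tested genes were called (4275 at an unadjusted p under 0.05), and 6 of the 9 genes described. The count over all genes was 798 with the replicate number as a block, 3210 with DESeq2, 4706 without wild-type replicate 2 and knockout replicate 1, 2996 with the length and GC trend removed, and 792 to 2192 with 5 of the 6 libraries. The fits on fewer samples gave 792 when wild-type replicate 1 was dropped, 911 for wild-type replicate 3, 1270 for knockout replicate 2 and 963 for knockout replicate 3. Of the 9 genes from 4 to 8 passed over the 21 alternatives, and none of the fold changes, within-library ratios or values against cardiomyocyte markers of the 9 changed direction. With edgeR on the recovered reads 1864 genes and 6 of the 9 passed.

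The replicate block left 4 of the 9 genes past the threshold, with CKB at an adjusted p of 0.0772 and SLC6A8 at 0.0771. Deviations from the genotype's mean of libraries with the same number correlated at -0.23, -0.40 and 0.17 across genes, so the numbers were not taken as pairs. GAMT passed in 6 alternatives (adjusted p over all of them 0.000154 to 0.246) and MB in 2 (0.00685 to 0.450). Under the block STK25 itself (limma adjusted p 0.0684) also missed the threshold. So did AHCYL1 (adjusted p 0.0664), AK9 (0.107), ALAS1 (0.0923), FECH (0.132), MEF2C (0.0913) and SLC25A4 (0.125). The effect of depth was not tested, and the knockout values of CKMT1A and CKMT1B rest on 11 to 74 reads, and intervals on such reads would cover counting error only. The cause of the differences between alternatives was not tested.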
